A study of Mus musculus with 4 samples.

Results

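The 9 genes described here encode the LSD1-CoREST corepressor and its close partners, which were taken by symbol (Kdm1a, Rcor1, Rcor2, Rcor3, Hdac1, Hdac2, Phf21a, Hmg20b and Ehmt2) from 41214 genes in the count tables. Each symbol matched 1 Ensembl identifier, and all 9 had enough reads to be tested. RNA came from megakaryocytes, the marrow cells that shed platelets, of C57Bl/6 mice aged 8 weeks, sorted as Lin- cKit+ CD41+ CD61+ cells. The 4 groups held 1 library each, namely Gfi1b wild-type and Gfi1b knockout in a PF4-Cre model and in a ROSA-Cre model. Pf4 is a megakaryocyte gene, and its promoter is used to drive Cre there. The labels do not say how the ROSA-Cre allele is driven or induced, or whether wild-type mice carried Cre. They also do not say how many mice gave a library, so the spread between libraries may be partly technical. Values of the 4 libraries are listed in 1 order throughout, the PF4-Cre pair before the ROSA-Cre pair and wild-type before knockout in each pair. Knockout means labelled knockout, and Gfi1b itself had 10137, 84744, 5864 and 55122 counts, more in both libraries so labelled.

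GFI1B is a zinc finger repressor of the megakaryocyte and red cell lineages. Its short N-terminal SNAG domain resembles a histone tail and docks in the catalytic pocket of LSD1, the histone demethylase encoded by Kdm1a. LSD1 works on nucleosomes only when held by a CoREST scaffold (RCOR proteins), which also binds the deacetylases HDAC1 and HDAC2, so that methyl and acetyl marks of active genes are removed together. PHF21A (BHC80) reads the unmethylated histone tail that LSD1 leaves, HMG20B (BRAF35) is a DNA-bending subunit, and EHMT2 (G9a) adds repressive methyl marks and has been described as a partner of GFI1 proteins.

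Of the 9 genes, 1 rose (Phf21a) and 1 fell (Rcor2) in libraries labelled knockout, when the genotypes were compared over both Cre models with edgeR's quasi-likelihood test and Benjamini-Hochberg adjustment. Over all 15063 genes tested, 12.6% rose, 9.59% fell and 22.2% changed either way, so a count of 2 in 9 was close to the background. With 2 libraries per genotype, these p-values rest on how unlike the genotype change was in the 2 Cre models, moderated across genes. Only the sequences before RefSeq starts of this pair are shown, because they are the members whose transcript level passed the test. Capitals mark AATC, the core of the GFI1 and GFI1B recognition motif, on either strand (GATT on the strand shown). The stretches are the part of the RefSeq window of 250 bases before the start (GRCm38.p6, plus strand) that lies outside annotated exons of the gene. Rcor2 has 1 such window, chr19:7267144-7267324. Phf21a has 2, chr2:92185233-92185458 and chr2:92221222-92221469. Both lie inside the annotated gene, downstream of its first annotated start.

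Rcor2: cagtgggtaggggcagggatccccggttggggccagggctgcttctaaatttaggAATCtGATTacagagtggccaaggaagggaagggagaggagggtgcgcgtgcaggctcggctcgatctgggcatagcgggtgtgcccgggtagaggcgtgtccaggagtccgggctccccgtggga
Phf21a upstream window: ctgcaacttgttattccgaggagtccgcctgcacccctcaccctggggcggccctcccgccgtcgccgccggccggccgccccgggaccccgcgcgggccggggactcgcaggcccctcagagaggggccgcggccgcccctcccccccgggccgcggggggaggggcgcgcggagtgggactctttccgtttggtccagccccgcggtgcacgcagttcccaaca
Phf21a downstream window: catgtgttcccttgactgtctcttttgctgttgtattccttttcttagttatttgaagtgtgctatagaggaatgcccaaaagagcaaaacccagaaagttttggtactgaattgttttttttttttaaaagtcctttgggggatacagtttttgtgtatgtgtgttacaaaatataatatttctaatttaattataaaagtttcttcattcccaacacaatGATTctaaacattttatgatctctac

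The Rcor2 stretch held 2 matches in opposite orientation, separated by 1 base. The upstream Phf21a stretch held 0 and the downstream one 1. Their full windows of 250 bases held the same numbers. Of all 32851 windows of 250 bases, 69% held at least 1 match on either strand, so a match is common and describes letters only. Among members that did not pass the genotype test, each Hmg20b window held 2 matches and the Kdm1a window 1. Windows of Rcor1, Rcor3, Hdac2 and Ehmt2 held 0, and none was available for Hdac1. The full windows of 250 bases had a GC content of 67.6% in Rcor2, 75.6% in the upstream Phf21a window and 30.8% in the downstream one.

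**Figure D1:**
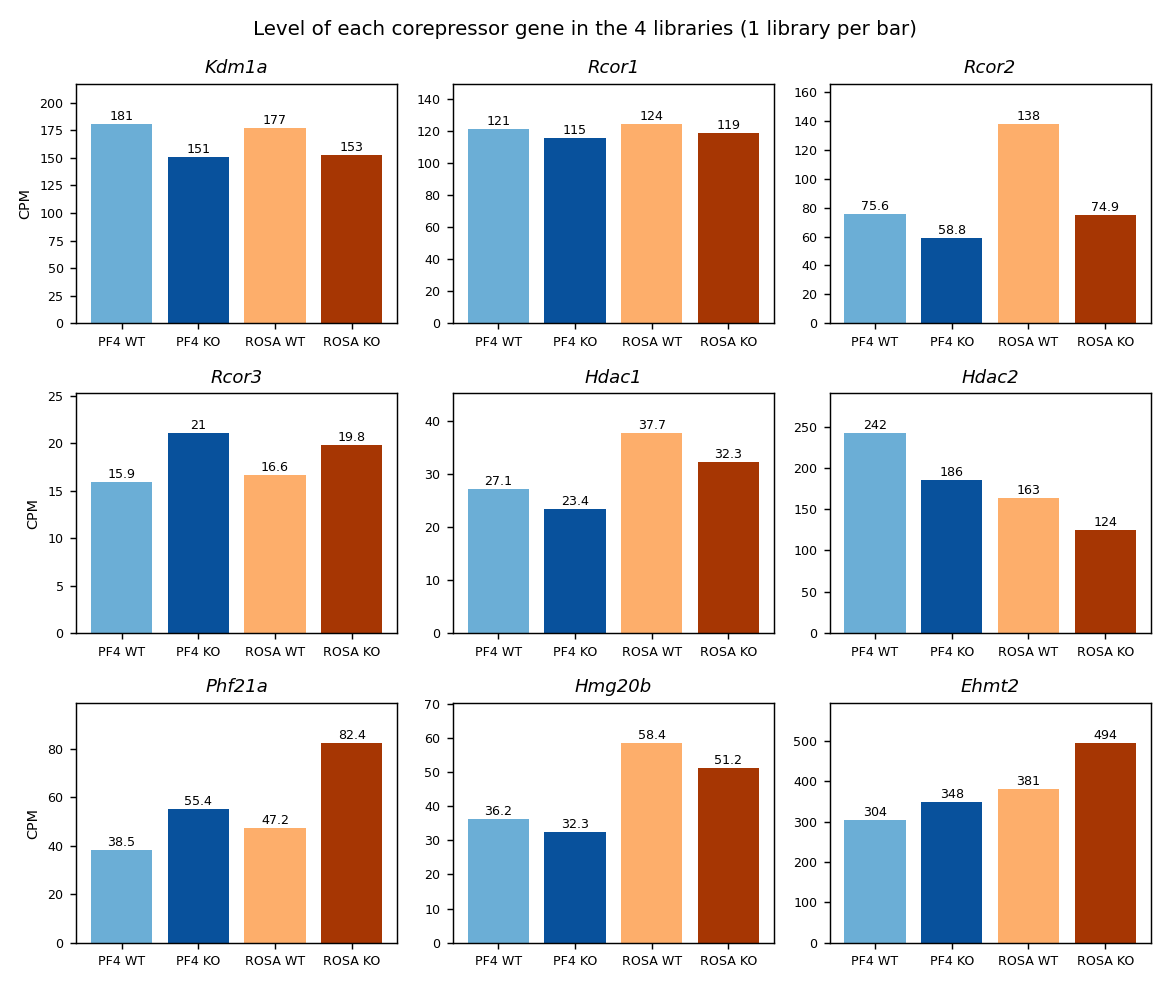
Level of each of the 9 genes in the 4 libraries, in CPM (counts scaled to the TMM-normalised library size, vertical axes from 0), 1 bar per library (WT wild-type, KO knockout). Rcor2 is highest in the ROSA-Cre wild-type library at 138.4 CPM and Phf21a in the ROSA-Cre knockout at 82.4 CPM, while Kdm1a and Rcor1 vary least.

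Kdm1a, the catalytic core that GFI1B contacts directly, lies on chromosome 4 (136550540 to 136602723, minus strand, GRCm38, as for all coordinates of genes here). It had 10829, 9109, 4365 and 3425 counts, or 181.2, 150.6, 177.4 and 153.0 CPM. Both knockout values were below both wild-type values. The log2 fold change of knockout over wild-type was -0.24 (SE 0.12), which did not pass the test (adjusted p = 0.18, edgeR's quasi-likelihood test). The PF4-Cre pair had a ratio of 0.831 (0.808 to 0.855 as the 95% Clopper-Pearson interval of counting) and the ROSA-Cre pair one of 0.862 (0.824 to 0.902). Between the Cre models Kdm1a had a log2 fold change of ROSA-Cre over PF4-Cre of -0.0042 (SE 0.12). This was the smallest of the members in the main fit, but Rcor3 (-0.013) and Rcor1 (0.042) lay within that error. After a correction for GC content and length the Kdm1a value was -0.18. Gfi1b itself moved on another scale: per kilobase of exon its level was 2.65, 26.3, 3.80 and 45.5 times that of Kdm1a. Reads were summed over every Gfi1b exon and the deleted part is not named in the labels, so this level does not check the genotypes.

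Of the 3 CoREST scaffold genes 1 fell in knockout, Rcor2, and the other two did not pass the test. Rcor2 (chromosome 19, 7267325 to 7275225, plus strand) had 4520, 3555, 3406 and 1678 counts, which is 75.6, 58.8, 138.4 and 74.9 CPM. It was highest by far in the ROSA-Cre wild-type library, and the ROSA-Cre knockout lay just under the PF4-Cre wild-type. Its log2 fold change was -0.62 (SE 0.16, adjusted p = 0.0306, edgeR), lower in the knockout of 2 of 2 pairs. The pair ratios were unlike, 0.777 (counting interval 0.744 to 0.812) for PF4-Cre and 0.541 (0.510 to 0.574) for ROSA-Cre. That difference between the models could not be tested with 1 library per group. Without a filter on low counts Rcor2 did not pass (adjusted p = 0.0783). Nor did it pass without the Cre model term (0.397), or when any 1 of the 4 libraries was left out and that term dropped. The log2 fold change then ran from -1.05 without the PF4-Cre wild-type to -0.15 without the ROSA-Cre wild-type, and was -0.51 without the PF4-Cre knockout and -0.86 without the ROSA-Cre knockout.

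Rcor1 (chromosome 12, 111039351 to 111115901, plus strand), the founding CoREST protein gene, was the steadiest member. It stood at 120.9, 115.2, 124.4 and 118.7 CPM (7225, 6971, 3062 and 2658 counts). The highest library exceeded the lowest by 1.08-fold, and the genotype change of -0.068 (SE 0.12) did not pass the test (adjusted p = 0.712, edgeR). Rcor3 (chromosome 1, 192098546 to 192138062, minus strand) was the least abundant of the 3, at 15.9, 21.0, 16.6 and 19.8 CPM (952, 1273, 409 and 444 counts). Both knockout libraries were above both wild-type ones (log2 fold change 0.33, SE 0.18, adjusted p = 0.227, edgeR), which was 0.11 after the GC and length correction. Its exons overlap 2 genes on the opposite strand, Gm26879 over 667 bases and Gm10516 over 336 bases, which held at most 1 and 106 counts in a library. The strand setting of the counting is not given in the sources used here, so Rcor3 reads from these stretches are uncertain.

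Set beside each other per kilobase of exonic length, the scaffolds differed in proportion between libraries. Rcor2 made up 51.6% of the RCOR transcripts in the PF4-Cre wild-type (95% Clopper-Pearson interval 50.7% to 52.6%) and 46.0% in the PF4-Cre knockout (45.1% to 47.0%). It made up 65.5% in the ROSA-Cre wild-type (64.4% to 66.5%) and 51.5% in the ROSA-Cre knockout (50.02% to 53.01%). Per exonic length Rcor2 was thus the larger share in 3 of the 4 libraries, and Rcor1 was larger in the PF4-Cre knockout at 50.1% (49.2% to 51.1%). Rcor3 stayed between 1.82% and 3.82%, and between 5.82% and 11.9% when counts were divided by the longest transcript instead. The summed RCOR level was 46.4, 40.4, 67.0 and 46.1 CPM per kilobase, so it too was highest in the ROSA-Cre wild-type. Which scaffold leads depends on the division by length in 3 libraries. In raw counts Rcor2 made up 35.6%, 30.1%, 49.5% and 35.1% and Rcor1 56.9%, 59.1%, 44.5% and 55.6%, so Rcor2 led only in the ROSA-Cre wild-type. By longest transcript Rcor2 led in all 4 libraries, the PF4-Cre knockout included (44.6% against 43.5%). These intervals, like those of the pair ratios, take in counting error alone, because reads carried no molecular identifiers and are not separate molecules.

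**Figure D2:**
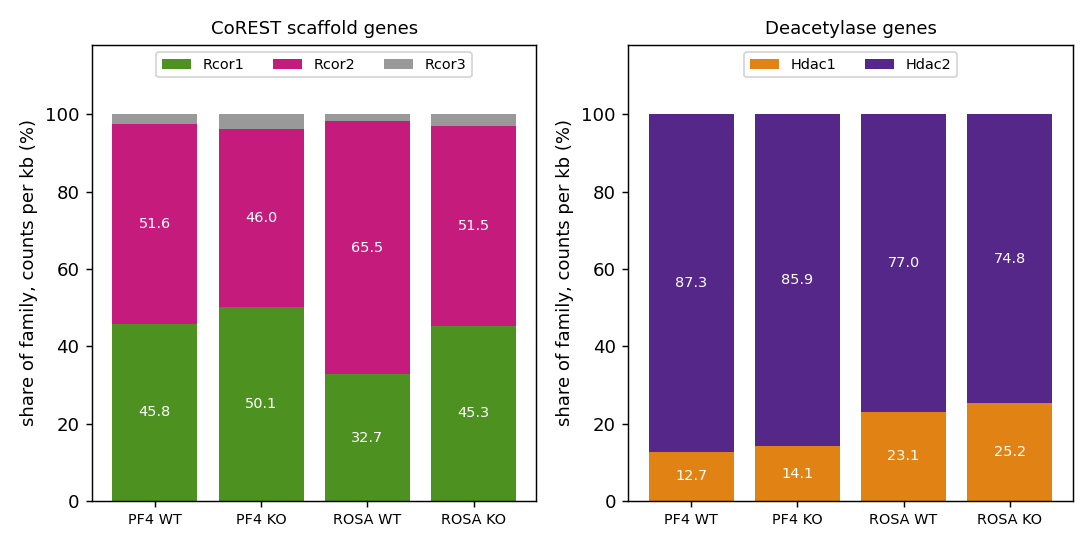
Share of each gene in its family (percent of counts per kilobase of exonic length, stacked to 100%) in the 4 libraries, for the CoREST scaffold genes on the left and the deacetylase genes on the right. Rcor2 goes from 65.5% to 51.5% between the ROSA-Cre bars and from 51.6% to 46.0% between the PF4-Cre bars, whereas the Hdac1 share differs more between Cre models than between genotypes.

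Of the deacetylase genes, Hdac2 differed between the Cre models and Hdac1 did not pass that test. Hdac2 (chromosome 10, 36974544 to 37001889, plus strand) had 241.7, 185.5, 163.3 and 124.5 CPM (14448, 11221, 4019 and 2787 counts). Both ROSA-Cre libraries lay below both PF4-Cre ones (log2 difference of ROSA-Cre over PF4-Cre -0.57, SE 0.12, adjusted p = 0.019, edgeR). The knockout was below the wild-type by a nearly equal ratio in each pair, 0.767 (counting interval 0.749 to 0.787) for PF4-Cre and 0.762 (0.726 to 0.8001) for ROSA-Cre. The genotype change of -0.39 (SE 0.12) just missed the threshold (adjusted p = 0.0522, unadjusted p = 0.0118, edgeR). After a correction for GC content and length it was -0.47 and passed (adjusted p = 0.019, edgeR). With the Cre model term dropped and 1 library left out it was -0.069 without the PF4-Cre wild-type, -0.70 without the PF4-Cre knockout, -0.61 without the ROSA-Cre wild-type and -0.13 without the ROSA-Cre knockout, none of which passed.

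Hdac1 (chromosome 4, 129516104 to 129542713, minus strand) had 27.1, 23.4, 37.7 and 32.3 CPM (1621, 1418, 927 and 723 counts) in the same order. Here both ROSA-Cre libraries were above both PF4-Cre ones, with a log2 fold change of 0.47 (SE 0.15) that did not pass (adjusted p = 0.0718, edgeR). The genotype change was -0.22 (SE 0.15, adjusted p = 0.344). The Hdac1 level is uncertain in all libraries, because 35.5% of its 50-base words also occur in transcripts of other genes, 31.7% in the processed pseudogene Gm10093 alone, and reads that align in several places were not counted. Gm10093 held 281, 252, 100 and 90 counts. Of the other members, Rcor3 shared 7.16% of its words, and the rest 0.468% or less. With this limit, Hdac1 made up 12.7% and 14.1% of the HDAC1 and HDAC2 transcripts per kilobase in PF4-Cre wild-type and knockout, and 23.1% and 25.2% in ROSA-Cre.

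Phf21a, whose protein reads the demethylated histone tail, was the member that rose (chromosome 2, 92093117 to 92364666, plus strand). It had 2300, 3350, 1162 and 1845 counts, or 38.5, 55.4, 47.2 and 82.4 CPM. Both knockout libraries exceeded both wild-type ones, and the ROSA-Cre knockout stood highest. The log2 fold change was 0.66 (SE 0.14, adjusted p = 0.0185, edgeR), higher in 2 of 2 pairs, with ratios of 1.44 (counting interval 1.36 to 1.52) for PF4-Cre and 1.75 (1.62 to 1.88) for ROSA-Cre. The call ended without the Cre model term (adjusted p = 0.312). It also ended when that term was dropped and any 1 library left out, where the log2 fold change was 0.55 without the PF4-Cre wild-type and 0.94 without the PF4-Cre knockout. It was 0.86 without the ROSA-Cre wild-type and 0.37 without the ROSA-Cre knockout. The gene has 21 annotated transcripts, some from other starts, and a gene count does not show which of them changed.

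Hmg20b (chromosome 10, 81346048 to 81350480, minus strand), the gene of the DNA-bending subunit, stood at 36.2, 32.3, 58.4 and 51.2 CPM (2166, 1953, 1437 and 1146 counts). Its difference lay between the Cre models, with both ROSA-Cre libraries above both PF4-Cre ones (log2 difference 0.68, SE 0.14, adjusted p = 0.0186, edgeR). The genotype change was -0.18 (SE 0.14, adjusted p = 0.382). Ehmt2 (chromosome 17, 34898469 to 34914052, plus strand) was the most abundant member, with 304.1, 348.3, 381.4 and 494.1 CPM (18172, 21068, 9386 and 11064 counts). The knockout was above the wild-type within each model, by a ratio of 1.15 (counting interval 1.12 to 1.17) for PF4-Cre and 1.30 (1.26 to 1.33) for ROSA-Cre, but the ROSA-Cre wild-type exceeded the PF4-Cre knockout. Neither its genotype change of 0.28 (SE 0.13, adjusted p = 0.149) nor its Cre model difference of 0.42 (SE 0.13, adjusted p = 0.0597) passed the edgeR test. With the Cre model term dropped and 1 library left out, its genotype change was 0.15 without the PF4-Cre wild-type, 0.53 without the PF4-Cre knockout, 0.49 without the ROSA-Cre wild-type and 0.022 without the ROSA-Cre knockout.

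**Figure D3:**
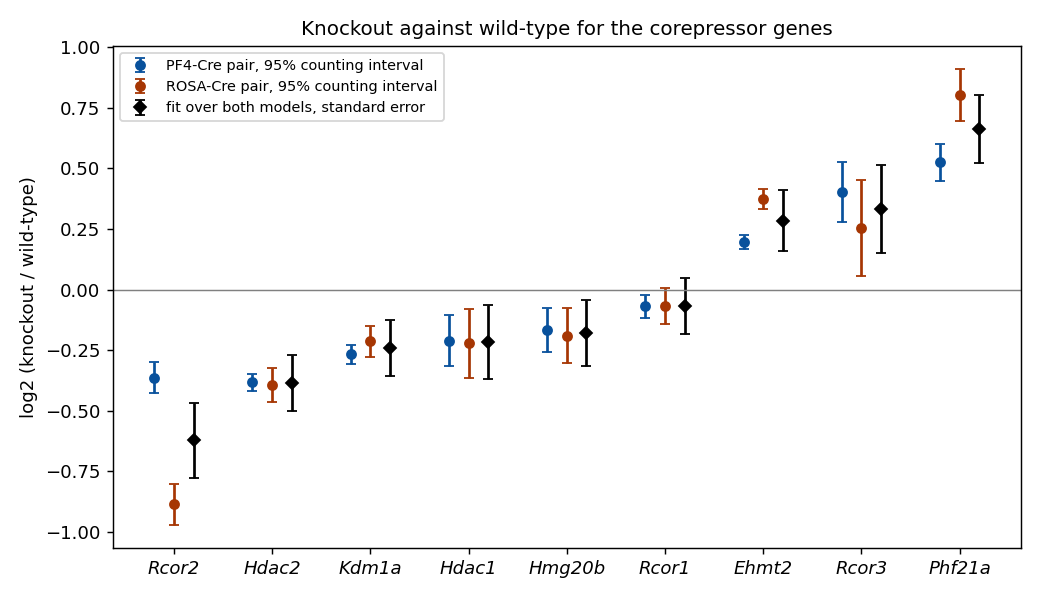
Log2 ratio of knockout over wild-type for the 9 genes, ordered by the fit over both Cre models. Circles give the PF4-Cre pair and the ROSA-Cre pair with 95% counting intervals, diamonds the fit with its standard error. Rcor2 at -0.62 and Phf21a at 0.66 stand at the ends, and the pairs lie farthest apart for Rcor2.

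Across the members the changes were small. The median log2 fold change was -0.18, the range -0.62 to 0.66, and the median size 0.28, against a median of -0.023 and a median size of 0.35 over all genes tested. In the PF4-Cre pair 0 of 9 members differed by at least 2-fold, against 12.6% of all genes, and in the ROSA-Cre pair 0 of 9, against 21.6%. At 1.5-fold the PF4-Cre count was 0, against 24.9% of all genes, and the ROSA-Cre count 2 (Rcor2 and Phf21a), against 40.7%. All 9 members had the same direction in both pairs, as did 76.9% of all genes. The genotypes did not overlap in 5 members, against 47.1% of all genes. The knockout was lower in 3 of these (Kdm1a, Rcor1 and Rcor2), against 23.7% of all genes, and higher in 2 (Rcor3 and Phf21a), against 23.4%. The genotypes were apart without passing the test in 3 of the 9 members (Kdm1a, Rcor1 and Rcor3) and in 26.8% of all genes. An unadjusted p under 0.05 was found for 3 of the 9 members, the third being Hdac2, and for 36.9% of all genes.

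Compared per kilobase of exonic length, the members covered a wide span of levels. Ehmt2 led with a mean of 69.6 CPM per kilobase (55.4 to 90.0 over the 4 libraries), followed by Hdac2 at 39.95 (27.8 to 54.0), Kdm1a at 32.0 (29.1 to 35.0), Rcor2 at 27.5 (18.6 to 43.8) and Rcor1 at 21.1 (20.3 to 21.9). The ranges of Hdac2, Kdm1a and Rcor2 overlapped, as did those of Rcor2 and Rcor1, so these neighbours were not ordered beyond their spread. Below them stood Hmg20b at 14.1 (10.3 to 18.5), Hdac1 at 8.75 (6.81 to 10.9), Phf21a at 6.53 (4.50 to 9.62) and Rcor3 at 1.35 (1.17 to 1.55). The ranges of Hmg20b and Hdac1 overlapped, although Hmg20b was the higher within each of the 4 libraries. Those of Hdac1 and Phf21a overlapped too, and Phf21a was the higher in the ROSA-Cre knockout (9.62 against 9.37). Rcor3 was below all others. Among all genes tested, Ehmt2 lay at the 95.9th percentile per length, Kdm1a at the 89.2nd and Rcor3 at the 26.6th.

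The difference between the Cre models passed the test in 3 of 9 members. Higher in ROSA-Cre were Hmg20b and Rcor2 (log2 fold change 0.61, SE 0.16, adjusted p = 0.0359, edgeR), and lower was Hdac2. Rcor2 did not pass without a filter on low counts (adjusted p = 0.0859, edgeR). Ehmt2 passed with the DESeq2 Wald test (0.0293) and, among genes with a mean of 5 CPM or more, so did Ehmt2 (0.0324), Hdac1 (0.037) and Phf21a (0.0367) by edgeR. Over all genes, 8.33% were higher, 10.4% lower and 18.7% different either way in ROSA-Cre, and the models did not overlap in 4 members (Hdac1, Hdac2, Hmg20b and Ehmt2), against 45.1% of all genes. For Rcor2 the ROSA-Cre excess was 1.83-fold between the wild-type libraries (counting interval 1.75 to 1.91) and 1.28-fold between the knockout libraries (1.202 to 1.352). The models also differed in depth, with 61652843 and 59595680 gene counts in PF4-Cre and 24869421 and 21835165 in ROSA-Cre. They differed in sex-linked transcripts as well. The Y-linked genes Ddx3y, Eif2s3y and Uty were at 0 in both PF4-Cre libraries and between 764 and 1791 counts in ROSA-Cre. Kdm5d, also Y-linked, had 21, 15, 1305 and 1568 counts. Xist had 75074 and 77495 counts in PF4-Cre and 2818 and 6334 in ROSA-Cre, so it also differed within the ROSA-Cre pair. Cre model, sex of the mice and library preparation therefore cannot be told apart.

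The members' Cre model differences were read beside their GC content. Hdac2, at 41.9% GC in its longest transcript, was lower in ROSA-Cre, and the 3 members over 60% had values above 0, namely Hmg20b (60.5%), Ehmt2 (60.8%) and Rcor2 (61.6%). After a correction of each library for GC content and length, the difference was -0.091 for Hdac2 (adjusted p = 0.669), 0.12 for Hmg20b (0.645), -0.24 for Ehmt2 (0.287) and -0.017 for Rcor2 (0.954). Members of intermediate GC content did not follow 1 pattern. Hdac1 (50%) kept 0.43 of 0.47, Phf21a (50.9%) went from 0.44 to 0.23, and Kdm1a (51.7%) from -0.0042 to -0.18. Rcor1 (48.4%) stood at 0.042 and then 0.023, and Rcor3 (43.2%), the other member of low GC content, at -0.013 and then 0.25. None of the 3 calls was left under that correction (edgeR), which also lowered the calls over all genes to 356 higher and 211 lower. The genotype calls of Rcor2 (-0.48, adjusted p = 0.0328) and Phf21a (0.56, adjusted p = 0.0188) were present with the same correction.

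**Figure D4:**
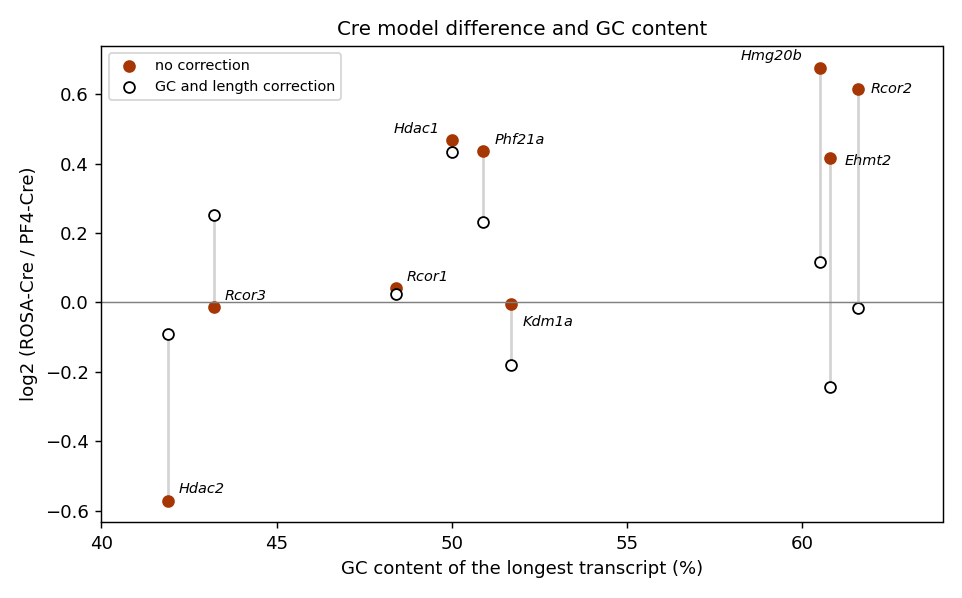
Log2 difference of ROSA-Cre over PF4-Cre against the GC content of the longest transcript (percent) for the 9 genes. Filled points have no correction, open points a correction of each library for GC content and length, joined by a line. The 3 genes over 60% GC drop from between 0.42 and 0.68 to between -0.24 and 0.12.

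The labelled cell type was read from 10 megakaryocyte markers, none at 0 in any library. Their summed level was 6938, 7469, 9638 and 6528 CPM (3 higher and 2 lower in knockout). Counts of called markers here and below stand beside 12.6% higher and 9.59% lower over all genes tested. Like Rcor2, this sum was highest in the ROSA-Cre wild-type. The most abundant was Itga2b, which encodes CD41. The genes of CD41, CD61 and cKit, on which the cells were sorted, are among the 10, so their presence is not an independent check. The 10 neutrophil markers summed to 1727, 1056, 1876 and 489 CPM (4 lower in knockout, most abundant Mpo), and the 10 red cell markers to 52.3, 216.8, 114.1 and 343 CPM (5 higher, 2 lower, most abundant Hbb-bs), with none of either list at 0. Monocyte markers (7 genes, 2 lower, led by Ly6c2) summed to 116.7, 115.1, 156.9 and 58.6 CPM. Mast cell and basophil markers (7, 1 higher, Prss34) summed to 63.6, 86.5, 83.7 and 109.3 CPM. The sums were 30.3, 22.4, 27.3 and 20.1 for B cell markers (6, Cd79b). For T and NK cell markers (7, Nkg7) they were 73.6, 35.0, 91.9 and 83.9. Defining genes of the last 3 were at 0 in at least 1 library, such as Cma1, Pax5 and Cd3e. Rcor2 thus fell in both pairs, as did the neutrophil, B cell and T and NK cell sums. The monocyte sum was nearly level in the PF4-Cre pair (116.7 and 115.1 CPM) and lower in the ROSA-Cre knockout. The T and NK cell sum was mostly Nkg7 (71.9, 32.4, 90.7 and 80.4 CPM). Likewise, the B cell sum was mostly Cd79b (26.35, 20.2, 26.7 and 19.7 CPM). Phf21a rose in both pairs, as did the red cell sum and the mast cell and basophil sum. Within the red cell sum, Hbb-bs alone had 7.295, 135.4, 37.7 and 221.3 CPM. The part of these cells in either result was not tested. In bulk RNA, fewer cells of a type and less RNA per cell cannot be told apart.

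Profiles most like those of the called pair were sought among 10593 other genes whose mean reached 5 CPM, by the Euclidean distance between log2 CPM centred on each gene's mean over the 4 libraries. Nearest to Rcor2 were Xxylt1 (distance 0.0551), Timm50 (0.0676) and Tmem160 (0.0794). Timm50, a subunit of the mitochondrial import machinery, had 63.6, 51.8, 123.5 and 66.5 CPM. Nearest to Phf21a were Ern1 (0.0573), the gene of an endoplasmic reticulum stress sensor, at 73.8, 103.0, 92.3 and 160.8 CPM, then Naglu (0.0653) and Lmbr1l (0.0666). With 4 libraries such nearness describes 1 pattern of highs and lows only.

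Other genes of the same chromatin machinery were read from 11 lists, 100 names in all, of which 90 were tested. In the knockout libraries 9 rose and 8 fell, with a median log2 fold change of -0.040 (-0.18 in the 9 corepressor genes). Shares of 12.6% rising and 9.59% falling over all genes compare with 9 and 8 of 90. None of the 8 that fell passed without a filter on low counts (adjusted p from 0.0511 to 0.0807, edgeR). Without the Cre model term 3 of the 90 were higher and 0 lower. Among 15 further cofactors of LSD1, CoREST and GFI1 proteins, 1 rose and 2 fell. The riser was Zfp217, a zinc finger partner of CoREST (0.58, SE 0.13). Those that fell were Suv39h1 (-0.55, SE 0.12), a methyltransferase that marks silent chromatin, and Cbx5 (-0.46, SE 0.14), whose protein HP1 alpha binds that mark. Cbx5 also did not pass among genes with a mean CPM of 5 or more (adjusted p = 0.0528, edgeR). The methyltransferase paralogue Suv39h2 fell too (-0.69, SE 0.17), so that 2 of the 5 listed genes of this enzyme group fell. Ehmt2, which belongs to the group but is counted among the 9 members, had 0.28 (SE 0.13) and did not pass.

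Called genes were also found among NuRD subunits and other histone deacetylases, where the shares over all genes were again 12.6% rising and 9.59% falling. In 12 NuRD subunits 1 rose and 1 fell. The remodeller gene Chd3 had 1310, 4250, 588 and 5088 counts (log2 fold change 2.45, SE 0.34, adjusted p = 0.00442, edgeR), and Gatad2a fell (-0.54, SE 0.12). Of 9 other histone deacetylases 2 rose. Hdac9, a class IIa enzyme, had 816, 3253, 314 and 993 counts (1.89, SE 0.16, adjusted p = 0.000693, edgeR), and Hdac6, a cytoplasmic tubulin deacetylase, rose by 0.71 (SE 0.17). The fitted changes of Chd3 and Hdac9 exceeded those of all 9 corepressor genes.

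The remaining lists also held called genes, to be read beside the same shares over all genes, 12.6% rising and 9.59% falling. Of 13 SIN3 subunits 1 rose (Arid4a, 0.61, SE 0.14) and 1 fell (Brms1, -0.64, SE 0.19). Of 6 NCOR complex subunits 0 passed by the main edgeR fit and 0 by DESeq2. An unadjusted p under 0.05 (edgeR) was found for 1 of them (Hdac3, -0.29, SE 0.12), against 36.9% of all genes. Under the 11 alternatives 0 to 1 of these subunits were lower and 0 higher. Of 7 tested proteins with the same ELM2 and SANT domains as CoREST 1 fell (Mier2, -0.60, SE 0.17). Neither Brms1 nor Mier2 passed with the DESeq2 Wald test (adjusted p = 0.0552 and 0.0563) or after the GC and length correction (0.0874 and 0.0673). Of 11 genes of the histone methyltransferases that oppose LSD1, 2 fell, Wdr5 (-0.53, SE 0.12) and Dpy30 (-0.64, SE 0.16). Of the 4 demethylases of the KDM5 family, which act on the same histone residue as LSD1, Kdm5b rose (0.59, SE 0.12), and of 9 demethylases of the residue that EHMT2 methylates, Kdm7a rose (1.12, SE 0.17). After the GC and length correction Kdm5b was at 0.36 and did not pass (adjusted p = 0.0521, edgeR). Of 11 SNAG-domain factors only Gfi1b and Gfi1 were tested, and both rose (log2 fold changes 3.21, SE 0.17, and 2.92, SE 0.28). The other 9 SNAG genes had at most 7 counts in a library. Between the Cre models 22 of the 90 genes were higher and 6 lower in ROSA-Cre, against 8.33% and 10.4% of all genes. After the GC and length correction 6 were higher and 0 lower, against 356 and 211 of all 15063 genes. Those higher with and without it included the Y-linked Kdm5d, the methyltransferase gene Kmt2d and Gse1, which encodes a further CoREST-associated protein. Kmt2d went from 1.35 (SE 0.14) to 0.72 with the correction, Gse1 from 1.16 (SE 0.12) to 0.65, and Kdm5d from 7.66 to 7.87.

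**Figure D5:**
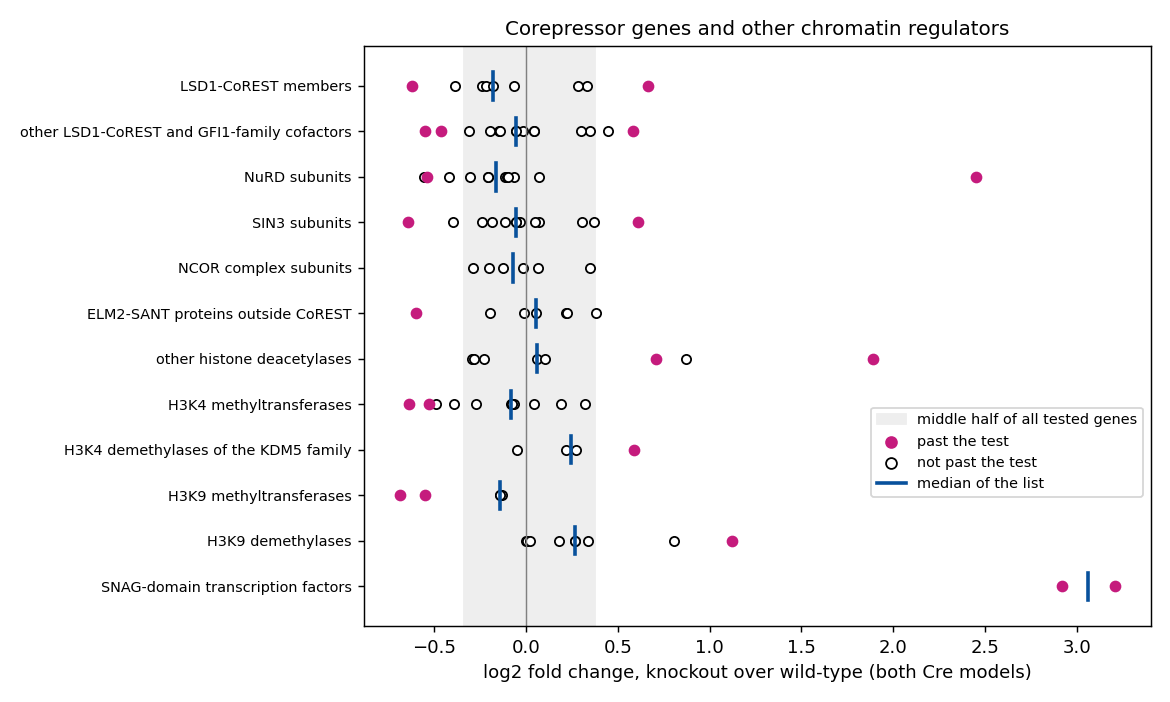
Log2 fold change of knockout over wild-type over both Cre models for each tested gene of the corepressor set and 11 lists of other chromatin regulators, 1 point per gene. Filled points passed the test, blue bars are list medians and the grey band is the interquartile range of all tested genes (-0.34 to 0.38). Chd3 at 2.45, Hdac9 at 1.89, Gfi1 at 2.92 and Gfi1b at 3.21 lie far to the right of the 9 corepressor genes.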

How the data were processed

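RNA of sorted megakaryocytes was sequenced in 4 libraries, 1 per group, grouped by title. Per the labels' protocols, paired-end TruSeq Stranded mRNA libraries followed a MagMax-96 extraction. TopHat2 2.0.10 is named in the submitters' processing notes, as are HTSeq, SAMtools, DESeq and GRCm38 (mm10), with no role or setting given. The authors deposited unnormalised HTSeq counts of reads for each Ensembl gene. For annotation release and strand setting, the sources used here give nothing. Reads in no gene (32.1% to 36.2% of unique reads) and ambiguous reads (0.448% to 0.532%) stayed out of library sizes. A count of 0 allowed 0.0487 to 0.137 CPM (3 counts per library). Symbols were found for 40254 of 41214 identifiers, and coordinates, lengths and GC came from GENCODE M21 (GRCm38).

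Counts were fitted with edgeR 4.0.16 in R 4.3.3: TMM, filterByExpr by genotype (minimum count 10), Cre model and genotype as terms, quasi-likelihood F-tests with bias-adjusted deviances and Benjamini-Hochberg adjustment at 0.05 over 15063 genes. This left 1 residual degree of freedom, the unlike response of the models, moderated over genes (6.25 prior degrees). Pair ratios used a pseudocount of 1. The pipeline was tested on simulated data. Alternatives were DESeq2 1.42.0 (size factors, Wald test), other filters, a GC and length correction (splines with 4 degrees of freedom per library), no Cre model term, each library left out, and, added after seeing the data, the older quasi-likelihood method. Named were all members, Gfi1b and Gfi1, in each list up to 3 genes by genotype and 2 by Cre model with the smallest p-values past the test, the 3 nearest profiles of each called member, and the most abundant marker of each cell type. Gm10093, Gm26879, Gm10516, Hdac3, Cma1, Pax5, Cd3e, Ddx3y, Eif2s3y, Uty and Xist were named after their values were seen. Members and lists were chosen with earlier results of these data known. The symbol Mideas was found only under its older name. The result of 1 listed gene is not reported here.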

Additional observations from a re-analysis of the deposited data

How the results depend on the processing

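The genotype calls of Phf21a and Rcor2 kept their direction under all 11 alternatives, and the settings that ended a call are given with it in the text above. The Cre model is the block of this design. Without it (no replicate block) 158 genes were higher and 4 lower in knockout, against 1904 and 1444, and leaving out 1 library, with that term dropped, gave 418 to 741 higher and 56 to 142 lower. Such fits compare 1 library with 2 and let the Cre model difference enter the genotype change. Without a filter on low counts 1406 were higher and 529 lower, and 742 were higher and 981 lower in ROSA-Cre, against 1254 and 1570. The GC and length correction left 356 higher (62.8%) and 211 lower in ROSA-Cre, against 44.4% higher. With it, the Cre model difference changed sign for Rcor2 (-0.017), Rcor3 (0.25) and Ehmt2 (-0.24). With a mean of at least 5 CPM the difference was 0.035 for Kdm1a and 0.026 for Rcor3, and with DESeq2 size factors or the Wald test 0.0048 for Kdm1a, all from values near 0. Leaving out 1 library and the Cre model term moved the genotype change of Hmg20b between -0.55 and 0.23 and of Hdac1 between -0.47 and 0.062. Because such fits take in the Cre model difference, they cannot decide the sign. Within the pairs, knockout over wild-type was 0.891 (PF4-Cre) and 0.877 (ROSA-Cre) for Hmg20b. For Hdac1 it was 0.864 and 0.857, and neither gene passed the genotype test. At a limit of 1.5-fold the PF4-Cre pair held 3758 genes apart and the ROSA-Cre pair 6133, against 1895 and 3259 at 2-fold. Rcor2's share of RCOR counts was 35.6%, 30.1%, 49.5% and 35.1% without division by length, and 44.6% in the PF4-Cre knockout by longest transcript. Hdac1's share was 10.1%, 11.2%, 18.7% and 20.6% without division and 15.2%, 16.8%, 26.9% and 29.3% by longest transcript. The cause of these shifts was not tested.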
